A study of Mus musculus with 6 samples.

Results

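The genes described here encode enzymes of the tricarboxylic acid (TCA) cycle and of the steps by which pyruvate enters it. They are Cs, Idh3a, Ogdh, Suclg1, Fh1 and Mdh2 of the cycle, Pdha1 and Pdk4 of the pyruvate dehydrogenase step, and Pcx, which encodes pyruvate carboxylase. They were chosen by gene symbol as 9 of the 52459 genes in a table of RNA-Seq counts, and all 9 passed the filter on low counts. The livers came from male Alb-Cre/Cas9 F1 mice of the C57BL6J strain, 3 given AAV8-U6-sgCtrl (mice 5.1, 7.1 and 7.2) and 3 given AAV8-U6-sgPrdx2 (mice 1.1, 1.3 and 3.2) at 4 to 5 weeks of age. Both groups received 100 mg/kg diethylnitrosamine (DEN), a liver carcinogen, 3 weeks after the vector, and then 6 months of a choline-deficient, amino acid-defined high-fat diet (CDAHFD). All were 8 months old at the end, so every comparison below is between livers of diseased mice given different guide RNAs. The study reports a lower tumor burden and less steatosis in its sgPrdx2 group, so the state of disease may also differ. Whether tumor nodules were in the sampled RNA is not given. The study targeted hepatocytes by joining Cre-dependent Cas9 in the liver with an AAV8 vector that brings the guide RNA to hepatocytes. The RNA is from whole liver, in which other cell types and hepatocytes without the vector remain.

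In the mitochondrion, pyruvate has a pair of fates. The pyruvate dehydrogenase complex oxidizes it to acetyl-CoA, and pyruvate carboxylase turns it into oxaloacetate, which condenses with acetyl-CoA to start the cycle or, in liver, leaves toward glucose. Pyruvate dehydrogenase kinases phosphorylate the complex and switch it off, and Pdk4 is the kinase best known for its induction by fasting and by fatty acids. The cycle then oxidizes citrate step by step back to oxaloacetate and passes electrons to the respiratory chain.

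Total counts per liver ranged from 37462102 to 56865293. Values are counts relative to the TMM-scaled library size, in the usual unit CPM (normalized CPM). Prdx2 itself stood at 119 ± 11.6 normalized CPM in sgCtrl livers and 120 ± 26.1 in sgPrdx2 livers (SD, n = 3 each), with a log2 fold change of 0.01, so its mRNA gave no check of the labels; a guide RNA can disrupt a coding sequence without lowering the transcript. Over all 17032 genes tested, edgeR's quasi-likelihood test called 567 at an adjusted p under 0.05, which is 3.33%, and the median log2 fold change was -0.02. The livers also differed in the RNA of cell types. The 13 hepatocyte markers analysed here were all higher in sgPrdx2 livers (11 when libraries were scaled to 6 housekeeping genes), with 6 called, a median log2 fold change of 0.94 and a summed level of 97100 to 106300 normalized CPM against 165500 to 222800, sgCtrl livers first here and in the next sentences. All 10 macrophage markers were lower, with 2 called and sums of 1586 to 2209 against 1081 to 1107. This rested in part on sgCtrl liver 7.2. Without that liver 5 of the 10 were higher, and their median log2 fold change was -0.168 instead of -0.507. Without any other single liver, at most 1 was higher. Of the stellate and fibroblast markers, 8 of 9 were lower, with none called and sums of 2244 to 2572 against 1628 to 1680. Cholangiocyte markers summed to 1630 to 1858 against 1217 to 1393. Most of these sums was Spp1, named after its values were seen, at 1492 to 1707 against 1080 to 1258. All 6 cholangiocyte markers were lower, with none called. In 3 of the 6 every sgPrdx2 liver was below every sgCtrl liver, against 17.5% of all genes. Endothelial markers summed to 208 to 244 against 148 to 231, and lymphocyte and leukocyte markers to 84.6 to 99.5 against 46.7 to 70.1. Muscle markers were near the limit of detection, with sums of 0.937 to 1.80 against 0.980 to 1.38 and Myh4 at 0 in every liver. Adipocyte and pancreas markers summed to 13.2 to 19.8 against 15.3 to 28.8, with Lep at 0. Nearly all of these sums was Cela1, the only 1 of these 6 markers with enough counts to be tested. None of the others exceeded 3 counts in any liver. In whole liver, fewer cells of a type and less RNA per cell cannot be told apart, and the part of these shifts in the results below was not tested.

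The members did not move as one group. By log2 fold change, Suclg1, Fh1, Mdh2, Pcx and, less so, Ogdh lay higher in sgPrdx2 livers. Cs, Idh3a and Pdha1 were nearly level, and the kinase Pdk4 lay lower. None of the 9 was called by edgeR's quasi-likelihood test, against 3.33% of all genes tested. At an unadjusted p under 0.05 there was 1 higher gene, Suclg1, and 1 lower gene, Pdk4, while 13% of all genes were higher and 11.9% lower at that p, so these counts do not set the 9 apart. In Ogdh, Suclg1 and Pcx, 3 of 9, every sgPrdx2 liver was above every sgCtrl liver, a pattern that 16.7% of all genes showed. Only Pdk4 of the 9 had every sgPrdx2 liver below every sgCtrl liver, against 17.5% of all genes. The median log2 fold change of the 9 was 0.16.

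**Figure D1:**
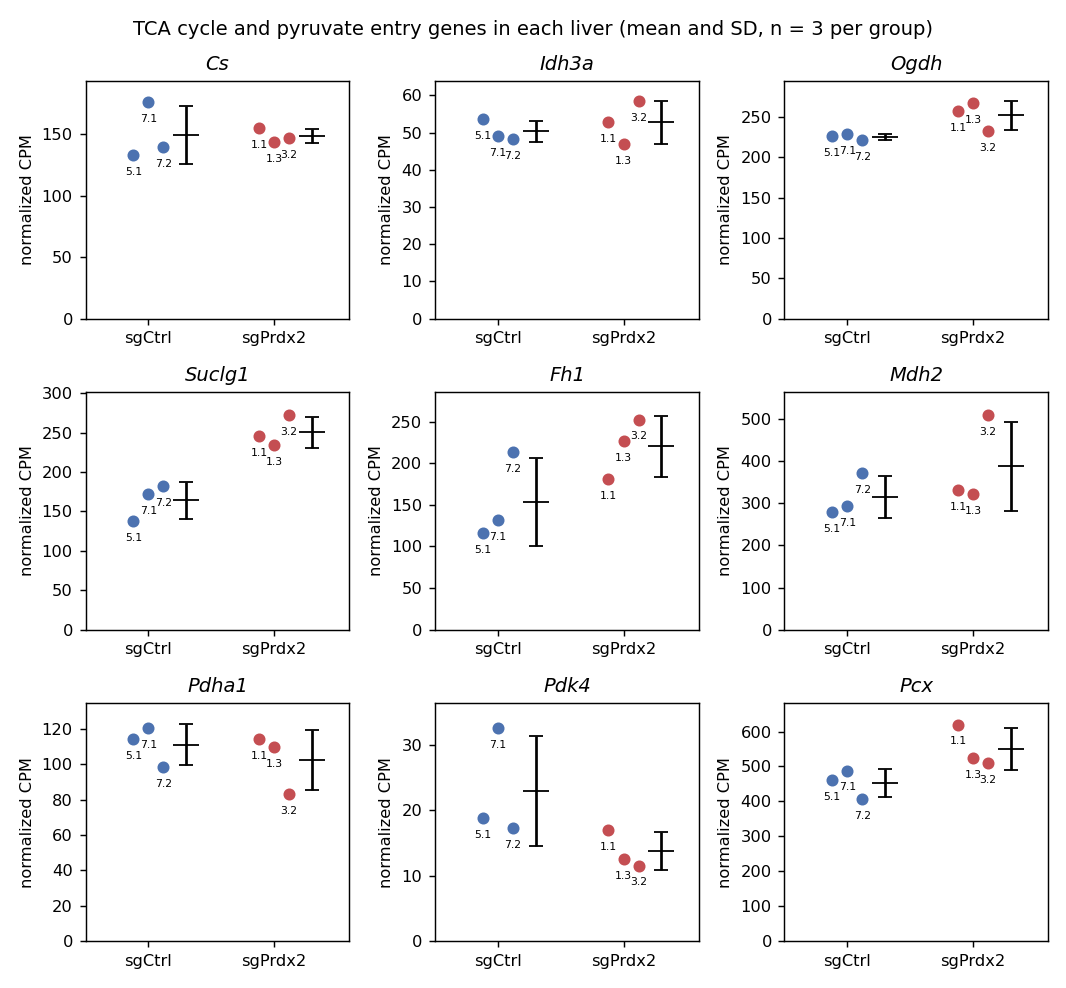
Normalized CPM (y axis, from 0) of the 9 genes in each sgCtrl (blue) and sgPrdx2 (red) liver, labelled by mouse, with the mean and SD of each group (n = 3) in black. The groups do not overlap for Ogdh, Suclg1, Pcx and Pdk4, and they overlap for the other 5 genes.

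Suclg1 (ENSMUSG00000052738.14, chr6:73248382-73276911 of GRCm38, plus strand) encodes the alpha subunit of succinyl-CoA synthetase, which is shared by the ATP- and GTP-forming enzymes and makes succinate. It measured 138, 172 and 183 normalized CPM in sgCtrl livers 5.1, 7.1 and 7.2, and 246, 234 and 272 in sgPrdx2 livers 1.1, 1.3 and 3.2. The lowest sgPrdx2 liver was thus well above the highest sgCtrl liver. The means were 164 ± 23.4 and 250.5 ± 19.7 (SD, n = 3 each), a log2 fold change of 0.61 with a standard error of 0.16 and a 95% interval of 0.25 to 0.97, or 1.53-fold. By edgeR's quasi-likelihood test its p was 0.00431, the smallest of the 9, and its adjusted p was 0.0694. The call depended on the method, since Suclg1 passed with DESeq2 (adjusted p = 0.0046) and with edgeR after a correction for transcript length and GC content (adjusted p = 0.0489). Over all 15 alternatives its log2 fold change stayed positive, from 0.24 to 0.71, and its adjusted p ranged from 0.0046 to 0.266.

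Pdk4 (ENSMUSG00000019577.6, chr6:5483351-5496309, minus strand) measured 18.9, 32.6 and 17.3 normalized CPM in sgCtrl livers 5.1, 7.1 and 7.2, from 825, 1466 and 909 counts. In sgPrdx2 livers 1.1, 1.3 and 3.2 it measured 17.0, 12.6 and 11.6, from 747, 679 and 376 counts. The groups did not overlap, but sgPrdx2 liver 1.1 nearly met sgCtrl liver 7.2, and sgCtrl liver 7.1 stood far above the other 5. The log2 fold change was -0.74 with a standard error of 0.27 and a 95% interval of -1.36 to -0.13, or 0.599 of the sgCtrl level. By edgeR's quasi-likelihood test its p was 0.0242 and its adjusted p was 0.144. Without sgCtrl liver 7.1 it was -0.40, with an adjusted p of 0.325 in the same test, so that liver set much of its size.

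The promoter stretches of Suclg1 and Pdk4 are shown because these members had the largest differences in each direction, chosen after their values were seen. Each runs 5′ to 3′ on the gene's strand, from RefSeq's window on GRCm38.p6 that starts 250 bases before the RefSeq transcription start, and stops before the first annotated transcript base of the gene. Capitals mark CpG pairs.
Suclg1, chr6:73248255-73248381, plus strand: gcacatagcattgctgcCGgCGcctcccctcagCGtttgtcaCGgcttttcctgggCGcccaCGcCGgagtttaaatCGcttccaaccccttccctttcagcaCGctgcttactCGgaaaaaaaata
Pdk4, chr6:5496310-5496528, minus strand: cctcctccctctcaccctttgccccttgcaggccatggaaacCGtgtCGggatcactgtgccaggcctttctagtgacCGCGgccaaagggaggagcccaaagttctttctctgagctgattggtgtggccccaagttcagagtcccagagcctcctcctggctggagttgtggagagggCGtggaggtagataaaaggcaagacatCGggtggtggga
The Suclg1 stretch holds 10 CpG pairs in 127 bases and the Pdk4 stretch 6 in 219. Over the whole 300-base windows (250 bases before to 50 after the start) the counts were 17 and 12, against a median of 7 and quartiles of 3 and 20 over 32851 RefSeq promoters. The table had windows for 8 of the 9 genes; for Idh3a it had no entry. In these windows, 6 motifs were searched on both strands. GGGCGG, the Sp1 box, which 35.7% of all promoters hold, was found for Cs, Ogdh, Fh1, Mdh2 and Pcx. TGACGTCA, the cAMP response element, held by 1.8% of all promoters, was found for Ogdh, 51 to 44 bases before the first of its 6 starts, and for Mdh2, 127 to 120 bases before its start. AAGGTCA, a motif of nuclear receptors such as the estrogen-related receptors (4.7% of all promoters), and GCGCATGC, the NRF1 core (2.7%), were found at other starts of Ogdh only. CCGGAAG, an ETS core (8.9%), and TATAAA, the TATA box (13.6%), were in none of the windows. None of the 6 was in the windows of Suclg1, Pdha1 or Pdk4, which says only that these letters are not there.

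The enzymes on each side of the pyruvate branch point were also measured. Pdha1 (ENSMUSG00000031299.10, chrX:160122209-160138413, minus strand) encodes the catalytic E1 alpha subunit of pyruvate dehydrogenase, the target of the kinases. It measured 114, 120.5 and 98.4 normalized CPM in the sgCtrl livers and 114, 109.8 and 83.2 in the sgPrdx2 livers, so the groups overlapped. Its log2 fold change was -0.12 (standard error 0.16, 95% interval -0.50 to 0.26, edgeR adjusted p = 0.686), and the interval leaves room for changes in either direction. Map3k15 on the opposite strand overlaps 16.1% of the exonic bases of Pdha1, but had only 21 to 64 counts in any liver.

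Pcx (ENSMUSG00000024892.17, chr19:4510472-4621752, plus strand) measured 461, 488 and 408 normalized CPM in the sgCtrl livers and 619.9, 523 and 509.6 in the sgPrdx2 livers. All sgPrdx2 livers were above all sgCtrl livers. The log2 fold change of Pcx was 0.29 (standard error 0.15, 95% interval -0.06 to 0.63, edgeR adjusted p = 0.281), and it was -0.08 when libraries were scaled to 6 housekeeping genes that the study used in another assay (Atp5b, Bag6, Cox8a, Hint1, Hnrnpa2b1 and Ndufa2). With TMM scaling these 6 genes were not level themselves. In sgPrdx2 livers 5 were higher and 1 lower, with a median log2 fold change of 0.43 and none called by edgeR. Those that encode respiratory subunits had 0.45 (Atp5b), 0.65 (Cox8a) and 0.68 (Ndufa2). Scaling to these 6 genes therefore lowers the fold changes of other genes.

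Within each liver, the ratio of Pcx to Pdha1 does not depend on how libraries are scaled. Per kilobase of annotated exon it was 3.17, 3.18 and 3.25 in the sgCtrl livers and 4.26, 3.75 and 4.81 in the sgPrdx2 livers. The sgCtrl livers lay within a narrow band and every sgPrdx2 liver was above it, a difference of 0.41 on the log2 scale. The exact permutation test gave p = 0.1, two-sided, which is the smallest p that 3 against 3 livers allow, and 0.243 adjusted over the 17 ratios computed.

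Pdk4 was also compared with the other kinase genes. Pdk2, the main kinase of these livers, was at 86.8 ± 4.32 normalized CPM in sgCtrl and 132 ± 11.7 in sgPrdx2 livers (SD, n = 3 each), a log2 fold change of 0.60 with an edgeR adjusted p of 0.0504. The ratio of Pdk4 to Pdk2 per kilobase was 0.197, 0.322 and 0.188 in the sgCtrl livers against 0.109, 0.0835 and 0.0876 in the sgPrdx2 livers, a log2 difference of -1.303. This was the largest difference in size among the 17 ratios, again with p = 0.1 in the exact permutation test and 0.243 adjusted. The ratio of Pdk4 to Pdk1 differed by -0.90 and that of Pdk4 to Pdha1 by -0.58, both without overlap of the groups and with the same p. Pdk3, a minor kinase that was not among the pairs and is named after its values were seen, lay lower like Pdk4, at 4.07, 3.58 and 3.98 normalized CPM in the sgCtrl livers and 2.51, 3.11 and 2.83 in the sgPrdx2 livers (log2 fold change -0.46, edgeR adjusted p = 0.161).

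Of the 4 kinase transcripts per kilobase, Pdk4 made up 13.4%, 21.2% and 13.7% in sgCtrl livers 5.1, 7.1 and 7.2, and 8.46%, 6.80% and 7.21% in sgPrdx2 livers 1.1, 1.3 and 3.2. Pdk2 made up 68.2%, 65.9% and 72.6% against 78.0%, 81.4% and 82.3%. Pdk2 thus led in all 6 livers and took a larger share in each sgPrdx2 liver. Pdk1 held 8.10% to 14.4% in any liver and did not separate the groups, whereas Pdk3 held 3.19% to 4.31% for sgCtrl and 1.71% to 2.42% for sgPrdx2. With the length of the longest transcript in place of all annotated exons, a choice made after seeing the data, the mean share of Pdk4 was 12.1% in sgCtrl and 5.46% in sgPrdx2 livers instead of 16.1% and 7.49%.

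**Figure D2:**
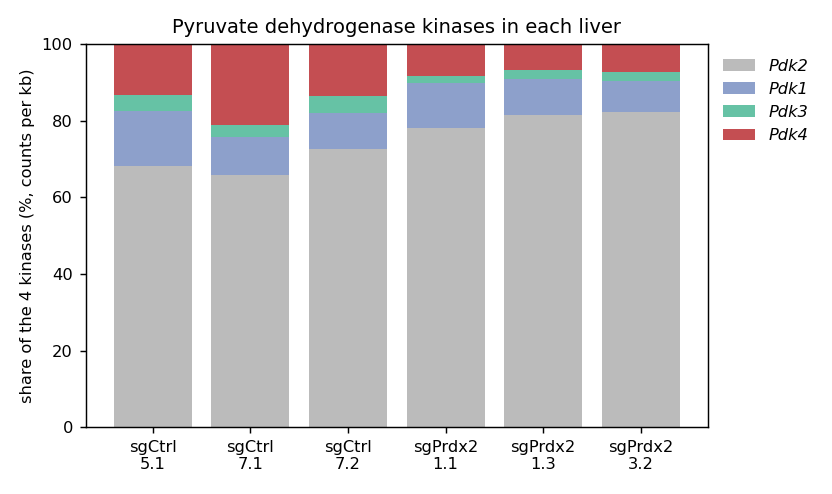
Share (y axis, percent of counts per kilobase) of Pdk1, Pdk2, Pdk3 and Pdk4 among the 4 pyruvate dehydrogenase kinases, 1 bar per liver. The red segment, Pdk4, spans 13.4% to 21.2% for sgCtrl and 6.80% to 8.46% for sgPrdx2.

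The other genes of the complex and its control were split. Of 12 tested genes in the list of pyruvate dehydrogenase and its regulators, 6 were higher and 6 lower, with none called by edgeR and a median log2 fold change of 0.05; with 6 housekeeping genes as the scale, 2 were higher. Pdha2, the testis form, had 0 counts in every liver. Pdhb, which encodes the partner subunit E1 beta, stood at 82.8 ± 4.39 and 80.3 ± 0.867 normalized CPM (SD, n = 3 each), a log2 fold change of -0.05, and its ratio with Pdha1 overlapped between groups (log2 difference -0.08, exact permutation p = 0.7, adjusted p = 0.7). Among the regulators, Pdp2, a phosphatase that switches the complex back on, had a log2 fold change of 0.49 (edgeR adjusted p = 0.0871), while Pdp1, the other phosphatase catalytic subunit, had -0.58 (adjusted p = 0.0977) at a low level of 5.30 and 3.53 normalized CPM.

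The members at the first steps of the cycle, Cs and Idh3a, were close to level. Other genes of these steps were not all so. Idh3b, Idh3g and Idh2 had log2 fold changes of 0.42, 0.32 and 0.34, with none called by edgeR. Cs (ENSMUSG00000005683.8, chr10:128337734-128362479, plus strand) encodes citrate synthase, whose activity is often used as a marker of mitochondrial content. It measured 133, 176 and 139 normalized CPM in the sgCtrl livers and 155, 143.5 and 147 in the sgPrdx2 livers. All sgPrdx2 livers lay inside the sgCtrl range, and the log2 fold change was -0.01 (standard error 0.15, 95% interval -0.36 to 0.33, edgeR adjusted p = 0.970).

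Idh3a (ENSMUSG00000032279.11, chr9:54586334-54604661, plus strand) encodes the catalytic alpha subunit of the NAD-dependent isocitrate dehydrogenase. It measured 53.7, 49.0 and 48.4 normalized CPM in the sgCtrl livers against 52.8, 46.9 and 58.5 in the sgPrdx2 livers. The groups overlapped, with a log2 fold change of 0.07 (standard error 0.13, 95% interval -0.23 to 0.37, edgeR adjusted p = 0.771). Its partner subunit genes did not keep the same pace. Idh3b went from 155 ± 7.01 to 207 ± 26.4 normalized CPM (SD, n = 3 each; log2 fold change 0.42, adjusted p = 0.129 by edgeR). The ratio of Idh3a to Idh3b per kilobase was 0.243, 0.217 and 0.201 in the sgCtrl livers and 0.182, 0.168 and 0.167 in the sgPrdx2 livers. The groups did not overlap (log2 difference -0.35, exact permutation p = 0.1, adjusted p = 0.243), whereas the ratio to Idh3g, the gamma subunit gene, did overlap (log2 difference -0.25, exact permutation p = 0.2, adjusted p = 0.309). Idh3a was the least abundant of the 3 subunit transcripts per kilobase in both groups, also with the length of the longest transcript. Idh2, which encodes the NADP-dependent mitochondrial enzyme, had a log2 fold change of 0.34 (edgeR adjusted p = 0.172).

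Ogdh (ENSMUSG00000020456.17, chr11:6291633-6356642, plus strand) encodes the E1 subunit of the 2-oxoglutarate dehydrogenase complex, a control point of the cycle. It measured 226, 228.5 and 222 normalized CPM in the sgCtrl livers and 257, 267 and 232 in the sgPrdx2 livers. The sgCtrl livers were almost equal and each sgPrdx2 liver was above them. The log2 fold change was small, 0.16 (standard error 0.13, 95% interval -0.13 to 0.46, edgeR adjusted p = 0.456), and it was -0.20 on the scale of 6 housekeeping genes and -0.02 on that of the 3 which encode no respiratory subunit (Bag6, Hint1 and Hnrnpa2b1). Dlst, the E2 subunit gene of the same complex, had a log2 fold change of 0.20, and its ratio with Ogdh overlapped between groups (log2 difference -0.04, exact permutation p = 0.6, adjusted p = 0.638).

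The members at the late steps, Fh1 and Mdh2, were higher on average but varied between livers. Fh1 (ENSMUSG00000026526.14, chr1:175600374-175625635, minus strand) encodes fumarase, which hydrates fumarate to malate. It measured 116, 131 and 213.5 normalized CPM in sgCtrl livers 5.1, 7.1 and 7.2 and 181, 227 and 252 in sgPrdx2 livers 1.1, 1.3 and 3.2. The sgCtrl liver 7.2 lay inside the sgPrdx2 range and apart from its own group. The log2 fold change was 0.52 (standard error 0.25, 95% interval -0.06 to 1.097, edgeR adjusted p = 0.241), and 0.84 without sgCtrl liver 7.2 (adjusted p = 0.159).

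Mdh2 (ENSMUSG00000019179.10, chr5:135778480-135790398, plus strand) encodes mitochondrial malate dehydrogenase, which regenerates oxaloacetate. It measured 279, 293 and 371 normalized CPM in the sgCtrl livers and 331, 322 and 509 in the sgPrdx2 livers. The sgPrdx2 liver 3.2 was far above the other 5, and the remaining sgPrdx2 livers lay inside the sgCtrl range. The log2 fold change of 0.30 (standard error 0.22, 95% interval -0.20 to 0.81, edgeR adjusted p = 0.421) was 0.07 without sgPrdx2 liver 3.2 and -0.10 on the scale of 6 housekeeping genes. Its cytosolic counterpart Mdh1, part of the malate-aspartate shuttle, had more even livers, 369 ± 43.4 against 595 ± 36.2 normalized CPM (SD, n = 3 each; log2 fold change 0.69, standard error 0.15, edgeR adjusted p = 0.0509). The ratio of Mdh2 to Mdh1 overlapped between groups (log2 difference -0.42, exact permutation p = 0.2, adjusted p = 0.309).

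**Figure D3:**
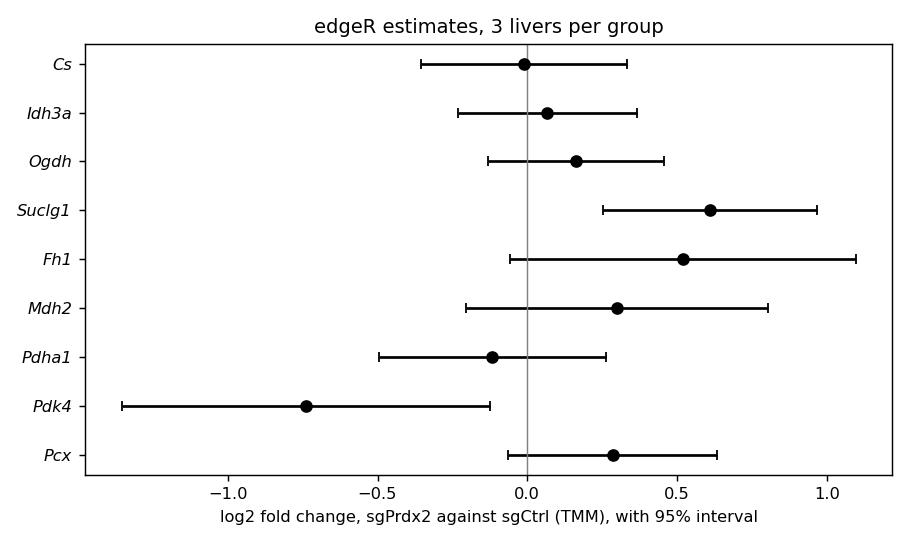
Log2 fold change of the 9 genes (x axis, sgPrdx2 against sgCtrl, TMM scaling; points) with 95% intervals (bars), from edgeR with 3 livers per group. The intervals of Suclg1 (0.25 to 0.97) and Pdk4 (-1.36 to -0.13) lie on one side of 0, and the other 7 include 0.

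Steps of the cycle also differed from each other inside the same liver. The ratio of Suclg1 to Cs per kilobase was 1.297, 1.22 and 1.64 in the sgCtrl livers and 1.99, 2.04 and 2.32 in the sgPrdx2 livers, a log2 difference of 0.62 (exact permutation p = 0.1, adjusted p = 0.243) without overlap of the groups. The ratios of Suclg1 to its GTP-forming partner Suclg2 (log2 difference 0.37), Fh1 to Mdh2 (0.28) and Cs to Mdh2 (-0.28) overlapped. So did those of Suclg2 to Sucla2, the ATP-forming partner (-0.12), and of Idh2 to Idh3a (0.28). Their exact permutation p-values ran from 0.2 to 0.6 (0.309 to 0.638 adjusted). Suclg2 shares 21.8% of its 50-base stretches with Gm15163, so its counts are uncertain, whereas none of the 9 members shared more than 1.4%.

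The 9 genes spanned a wide range of levels. Per kilobase of annotated exon, Pcx (95.1 ± 8.60 CPM per kilobase in sgCtrl and 116 ± 12.7 in sgPrdx2 livers; SD, n = 3 each) and Mdh2 (88.3 ± 13.9 and 108.8 ± 29.6) led, and their order changed between livers. By mean, Fh1 (45.2 ± 15.5 and 64.9 ± 10.7) followed, then Suclg1 (35.5 ± 5.06 and 54.3 ± 4.27) and Ogdh (41.3 ± 0.631 and 46.2 ± 3.29). Of the last pair, Ogdh was above in every sgCtrl liver and Suclg1 in every sgPrdx2 liver. In sgCtrl livers 5.1 and 7.1, Ogdh (41.35 and 41.87) was also above Fh1 (34.1 and 38.67). Pdha1 (29.8 ± 3.05 and 27.4 ± 4.51) and Cs (25.9 ± 4.06 and 25.7 ± 1.01) did not differ beyond their spread. Idh3a (9.92 ± 0.575 and 10.4 ± 1.14) and Pdk4 (6.53 ± 2.40 and 3.90 ± 0.830) came last in all 6 livers. With the length of the longest transcript, Mdh2 was above Pcx and Cs above Pdha1 in all 6 livers, Suclg1 was above Fh1 in 4 and above Ogdh in 5, and the mean of Suclg1 exceeded that of Ogdh in both groups. These orders therefore rest on the length used, and those of Mdh2 over Fh1, Ogdh over Pdha1, Cs over Idh3a and Idh3a over Pdk4 held in all 6 livers with either length.

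A wider list, of cycle enzymes with cytosolic counterparts, leaned to one side. The counterparts were Aco1, Idh1 and Mdh1, all higher, with log2 fold changes of 0.36, 0.27 and 0.69. Of 22 enzymes and subunits tested, 6 of them members, 20 were higher and 2 lower in sgPrdx2 livers, 8 of them higher at an unadjusted p under 0.05 (against 13% of all genes), with a median log2 fold change of 0.33 against -0.02 for all genes, but none was called by edgeR. The count of higher genes depended on the scale. The 6 housekeeping genes, 5 of them higher themselves with TMM scaling, moved the median of all genes to -0.38. On that scale 9 of the 22 were higher, although 21 remained above the median of all genes. DESeq2 called 6 of the 22, all higher. The smallest p values were those of Mdh1 and Suclg1. Singled out after their values were seen, the 4 subunit genes of succinate dehydrogenase, the enzyme between Suclg1 and Fh1, had log2 fold changes of 0.36 (Sdha), 0.68 (Sdhb), 0.45 (Sdhc) and 0.51 (Sdhd), with edgeR adjusted p-values from 0.0709 to 0.223.

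**Figure D4:**
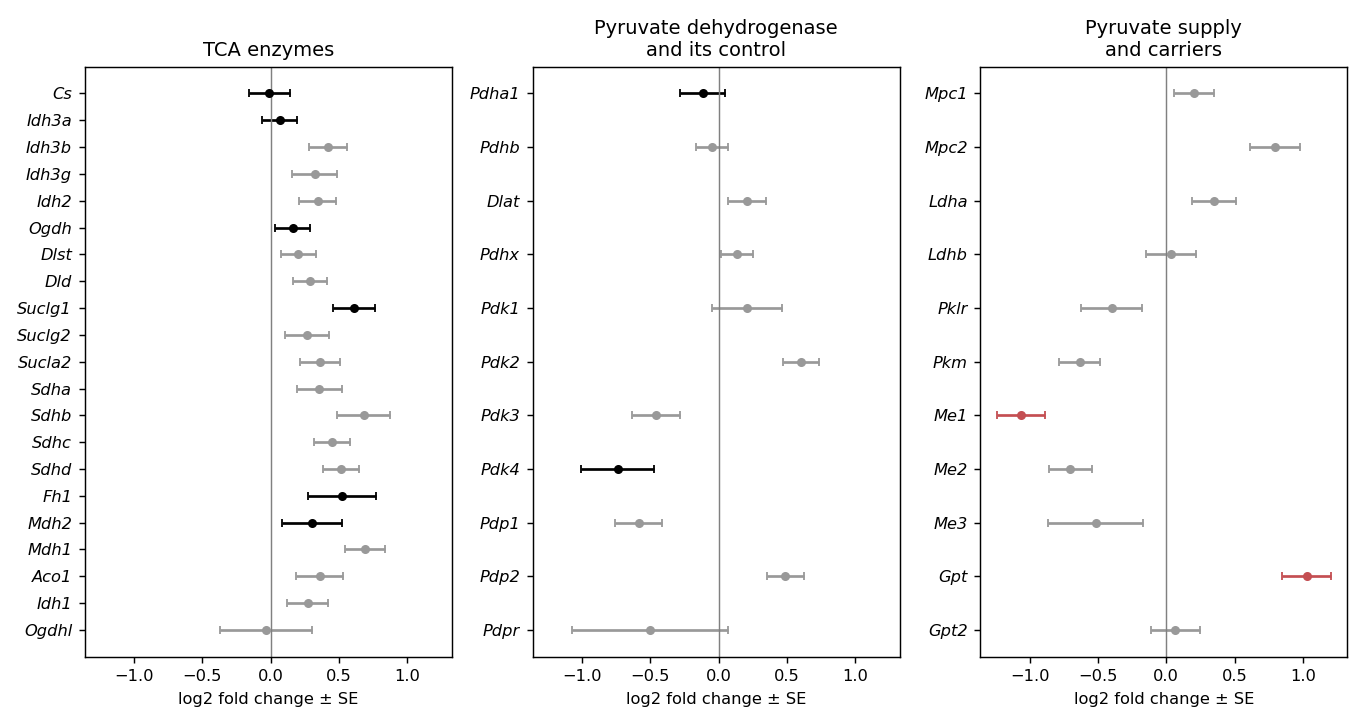
Log2 fold change (x axis, sgPrdx2 against sgCtrl) with its standard error for enzymes of the cycle with cytosolic counterparts, pyruvate dehydrogenase with its regulators, and genes of pyruvate supply; the members are black, called genes red and the rest grey. In the first panel, which leaves out 1 of the 22 genes, all points but Cs and Ogdhl lie to the right of 0, while the other panels spread to both sides, with Gpt at 1.03 and Me1 at -1.06.

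Genes that supply pyruvate moved in both directions. Of 11 tested, 6 were higher and 5 lower, with 1 called each way; 2 were higher on the scale of 6 housekeeping genes and 4 on that of 3, each with 1 called higher and 3 lower. Gpt, an alanine aminotransferase that makes pyruvate from alanine, rose from 204 ± 21.2 to 416 ± 78.1 normalized CPM (SD, n = 3 each). Its log2 fold change was 1.03, with a standard error of 0.18 and an edgeR adjusted p of 0.0394. Me1, the cytosolic malic enzyme that makes pyruvate and NADPH from malate, fell from 46.3 ± 10.4 to 22.1 ± 0.834 normalized CPM (log2 fold change -1.06, standard error 0.18, edgeR adjusted p = 0.0373). For both genes the groups were clearly apart, with every sgPrdx2 liver beyond every sgCtrl liver. Gpt2, the other alanine aminotransferase gene listed and named after its value was seen, was nearly level. It averaged 441 normalized CPM in sgCtrl and 462 in sgPrdx2 livers, with overlap of the groups (log2 fold change 0.07, edgeR adjusted p = 0.843). Mpc2, a subunit of the mitochondrial pyruvate carrier named after its value was seen, had a log2 fold change of 0.80 (edgeR adjusted p = 0.0568). Me2 and Pkm, also named after their values were seen, went the other way. They had log2 fold changes of -0.70 (edgeR adjusted p = 0.0558) and -0.63 (0.0599), without overlap of the groups.

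Among 18 genes that fill or drain the cycle, Pcx included, 14 were higher and 4 lower (11 higher on the scale of 6 housekeeping genes), with a median log2 fold change of 0.47 and 1 call. Mcee, methylmalonyl-CoA epimerase on the route from propionate to succinyl-CoA, rose from 29.4 ± 2.43 to 47.5 ± 5.83 normalized CPM (SD, n = 3 each; log2 fold change 0.69, standard error 0.13, edgeR adjusted p = 0.0439). Slc25a13, the aspartate-glutamate carrier, had a log2 fold change of 0.60 (edgeR adjusted p = 0.0604). Pck1, which takes oxaloacetate on toward glucose, measured 382, 664.5 and 784 normalized CPM in the sgCtrl livers and 1225, 2041 and 1066 in the sgPrdx2 livers (log2 fold change 1.24, standard error 0.33, edgeR adjusted p = 0.0769). The ratio of Pcx to Pck1 per kilobase was 0.871, 0.530 and 0.375 against 0.365, 0.185 and 0.345, lower in every sgPrdx2 liver (log2 difference -0.97, exact permutation p = 0.1, adjusted p = 0.243), though only narrowly so for sgCtrl liver 7.2.

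All 12 cofactor and assembly genes tested were higher, with a median log2 fold change of 0.44 and 1 call; with 6 housekeeping genes as the scale 7 of the 12 were. The called gene was Hagh, hydroxyacylglutathione hydrolase, which acts in methylglyoxal detoxification rather than on the cycle itself and rose from 109 ± 11.6 to 207 ± 28.7 normalized CPM (SD, n = 3 each; log2 fold change 0.92, edgeR adjusted p = 0.0392). Gcsh, a lipoylated protein of glycine cleavage on the lipoylation route, had a log2 fold change of 0.60 (edgeR adjusted p = 0.0555). Nnt, the mitochondrial transhydrogenase that is disrupted in C57BL/6J mice, was at 0.414 and 0.557 normalized CPM. The calls of Gpt, Me1, Mcee and Hagh were each lost without sgCtrl liver 5.1, sgCtrl liver 7.2, sgPrdx2 liver 1.1 or sgPrdx2 liver 1.3, when no gene at all was called (edgeR adjusted p from 0.0729 to 0.165 for these 4), and those of Gpt (0.0526), Mcee (0.0596) and Hagh (0.0582) also without sgCtrl liver 7.1. On the scale of 6 housekeeping genes the log2 fold change of Mcee was 0.31 (edgeR adjusted p = 0.163) and that of Hagh 0.54 (adjusted p = 0.0585), and on that of 3 it was 0.49 for Mcee (adjusted p = 0.104), so these calls were lost there, while Gpt and Me1 passed with both.

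Pdk4 is a classical target of PPARA, the fatty acid receptor of hepatocytes. Of the 18 other PPARA target genes listed, 11 were higher and 7 lower, with none called by edgeR. At an unadjusted p under 0.05 in that test there were 3 each way. Over all genes 13% were higher and 11.9% lower at that p, so these counts do not set the list apart. On the scale of 6 housekeeping genes 3 of the 18 were higher. Fabp1, the liver fatty acid-binding protein, had a log2 fold change of 1.17 (edgeR adjusted p = 0.0722), and Creb3l3, a transcription factor of the fasting response, had 0.75 (adjusted p = 0.0891). The 3 lower genes at that p, named after their values were seen, were Plin2, a lipid droplet coat protein (-0.51, adjusted p = 0.0967), Acot2, a mitochondrial acyl-CoA thioesterase (-1.21, adjusted p = 0.099), and Fgf21, a liver hormone (-1.32, adjusted p = 0.161), all by edgeR. Mitochondrially encoded genes were higher in 12 of 12 tested, with 4 called (none on either housekeeping scale, 9 with DESeq2) and a median log2 fold change of 0.84 (0.46 on the scale of 6 housekeeping genes), and their share of all counts was 2.79% to 3.50% for sgCtrl and 3.08% to 4.19% for sgPrdx2. The called mt-Nd4 and mt-Cytb averaged 3121 and 5834 normalized CPM in sgCtrl livers, but the called mt-Nd6 and mt-Co3 only 6.36 and 4.66. Why these levels were so uneven was not tested, so the share describes counted reads only.

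The genes most like each member over the 6 livers were found by the root mean square difference of log2 normalized CPM after centring each gene, among 9258 genes that averaged 10 CPM or more. For Suclg1 they were F2 (difference 0.05), Mdh1 (0.05) and Dcaf11 (0.06), and F2 encodes prothrombin, a secreted hepatocyte protein. For Pdk4 they were Hipk2 (0.14), Col15a1 (0.20) and Nes (0.21), the last pair a basement membrane collagen and the intermediate filament nestin. The nearest genes were Whamm (0.14) for Fh1, Stat5a (0.04) for Cs, AW209491 (0.04) for Idh3a, Sgpp1 (0.03) for Ogdh, 2700060E02Rik (0.02) for Mdh2, Aplp2 (0.03) for Pdha1 and Agmo (0.02) for Pcx. The difference grows with how much a gene varies, so it does not rank the matches between members.

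**Figure D5:**
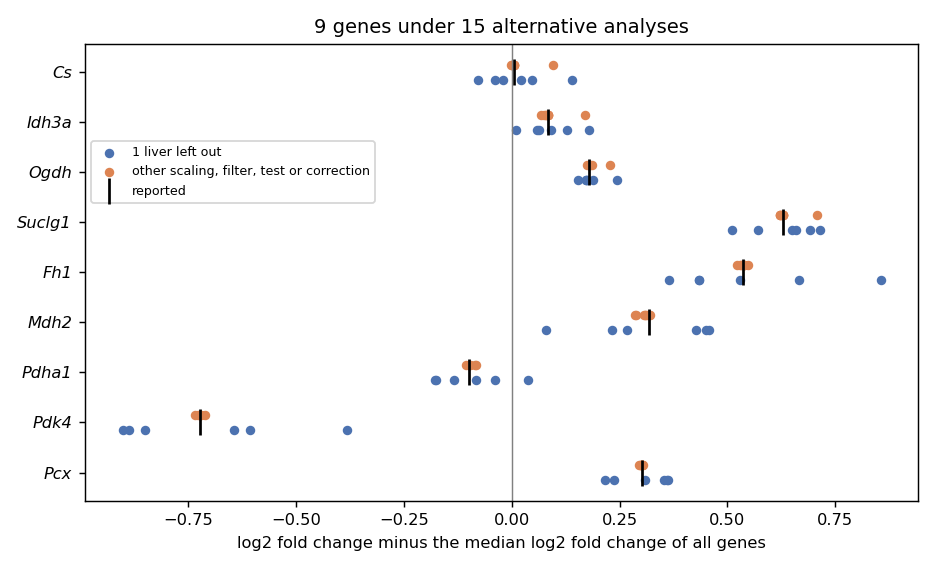
Log2 fold change of each gene minus the median of all genes (x axis) as reported (black) and under 15 alternative analyses, with 1 liver left out (blue) or with another scaling, filter, test or correction (orange). Relative to all genes, Suclg1, Fh1, Mdh2, Ogdh, Idh3a and Pcx stay above 0 and Pdk4 below 0 throughout, whereas Cs and Pdha1 fall on both sides.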

How the data were processed

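The authors deposited whole-number read counts per gene for each liver, without normalization; per the labels, HISAT2, HTSeq, DESeq2 and the build GRCm38 were used, and versions, annotation and strandedness are not given in the sources used here. A second deposited table holds the authors' own DESeq2 comparison and was not used. Groups were taken from the sample labels. The counts went into edgeR 4.0.16 under R 4.3.3 (filterByExpr with a minimum count of 10, TMM, quasi-likelihood test over all 6 livers, no covariate, Benjamini-Hochberg adjustment over 17032 genes, called under 0.05); DESeq2 1.42.0 was an alternative. The test was checked on simulated counts, but no outcome of that check is given here. Intervals are at 95%. A count of 3 corresponds to 0.0555 to 0.0921 normalized CPM, depending on the liver. Levels between genes were compared per kilobase of exons in GENCODE for GRCm38. Ratios within livers were tested by two-sided exact permutation, adjusted over 17 pairs. Named genes were the members, called genes and the 2 smallest p-values of each pathway list, genes of the pairs, and the 3 most alike genes of each member, apart from those said to be named or singled out after seeing values, and Pdp1, Pdha2, Nnt, Idh1, Cela1, the housekeeping genes and the mitochondrially encoded genes, also chosen so. The members and lists were chosen with earlier results of these data known. Each sample is a separate mouse. The labels give no batch or date, so none could be examined. For 1 gene of the lists, and the ratio that holds it, values are not reported here.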

Additional observations from a re-analysis of the deposited data

How the results depend on the processing

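Over all genes, 567 were called in the main analysis (305 higher, 262 lower), 989 with scaling to 6 housekeeping genes (70 higher, 919 lower), 526 with the 3 of these that encode no respiratory subunit (100 higher, 426 lower), 2066 with DESeq2, 1128 without a filter on low counts and 1002 after correction for transcript length and GC content. Leaving out 1 liver gave 0 to 619 calls by edgeR: 0 without sgCtrl 5.1, sgCtrl 7.2, sgPrdx2 1.1 or sgPrdx2 1.3 (with 3114 to 3993 genes at an unadjusted p under 0.05), 394 without sgCtrl 7.1 and 619 without sgPrdx2 3.2. With 1 liver left out DESeq2 was not run. Of the 9 genes, 1 was called with DESeq2 and 1 after the length and GC correction, in both cases Suclg1, and 2 rather than 6 were higher with 6 housekeeping genes. The median of the 9 relative to all genes was 0.18, and 0.079 to 0.189 with 1 liver left out.

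The median of all genes moved to -0.384 with 6 and -0.204 with 3 housekeeping genes, and the signs that turned under these scalings were those of Idh3a (-0.316 and -0.129), Ogdh (-0.197 and -0.022), Mdh2 (-0.096, with 6 only) and Pcx (-0.080, with 6 only). Cs turned to 0.003 with RLE scaling and 0.097 with the length and GC correction, and relative to all genes to -0.002 with 3 housekeeping genes. With 1 liver left out, Cs ranged from -0.089 to 0.124 (-0.078 to 0.140 relative to all genes), Idh3a from -0.002 to 0.163 and Pdha1 from -0.203 to 0.024 (-0.179 to 0.037 relative to all genes). Cs was nearest to 0 of the 9. The causes were not tested. No paired analysis was possible because the groups share no replicate numbers. With 3 livers per group, differences of the size seen for Ogdh or Idh3a could not be resolved from 0.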
